A study of Homo sapiens with 12 samples.

Results

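The 6 AsPC-1 libraries, of 12 in the series, were compared as 3 control and 3 MYEOV-knockdown libraries, and each was taken by its label. AsPC-1 is an established human pancreatic ductal adenocarcinoma line derived from ascites, and the other 6 libraries came from the pancreatic line PANC-1. Knockdown cells were transfected with siRNA against MYEOV, and small RNA was prepared 48 h later per the labels and sequenced as 50-nt reads, whereas the study's methods give another harvest time. The labels call the controls wild type and untreated, whereas their treatment protocol and the study's methods describe a negative control siRNA, so that in untreated controls the effect of transfection and that of MYEOV loss cannot be told apart. The series title speaks of a knockout, but the treatment was a transient siRNA knockdown. The protocol names 2 siRNAs without saying which library received which, and the numbers 1 to 3 could denote siRNAs as well as replicates. The study's methods state in general that experiments were repeated independently at least 3 times, without naming the sequencing libraries. Whether this covers the libraries used here is not stated, so the p-values measure the spread between these libraries, which may be technical. MYEOV mRNA is not part of a miRNA count, and the extent of its depletion was not measured in these libraries.

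MYEOV (myeloma overexpressed) is a gene whose expression is raised in several tumor types. A miRNA gene is transcribed into a long primary transcript, from which Drosha cuts a hairpin and Dicer a duplex of the 5p and the 3p arm. One strand, the guide, is usually retained in an Argonaute protein, while the passenger strand is mostly degraded, so that one arm of a hairpin is far more abundant than the other. Bases 2 to 8 of a mature miRNA, the seed, select its target mRNAs, and miRNAs with the same seed form a family. Here the less abundant arm of a hairpin in the 6 AsPC-1 libraries is called the minor arm and the more abundant the major arm.

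The sequences below carry the main patterns and are given 5′ to 3′ with the seed in capitals, from RefSeq (table build GRCh38.p14). The first set shows both arms of 4 hairpins whose minor arm gained against the major arm. The arms of one hairpin pair with each other and have different seeds, so a gain of the minor arm is a gain of another seed.
miR-20a-5p: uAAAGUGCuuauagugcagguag
miR-20a-3p: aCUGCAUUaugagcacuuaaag
miR-27a-3p: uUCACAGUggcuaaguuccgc
miR-27a-5p: aGGGCUUAgcugcuugugagca
miR-30e-5p: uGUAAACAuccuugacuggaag
miR-30e-3p: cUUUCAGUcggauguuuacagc
miR-200b-3p: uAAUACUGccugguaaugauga
miR-200b-5p: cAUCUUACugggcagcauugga

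The second set shows miRNAs that share a seed, because members of one seed family did not always change alike.
miR-30a-3p: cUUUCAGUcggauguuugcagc
miR-200a-5p: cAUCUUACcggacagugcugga
miR-17-5p: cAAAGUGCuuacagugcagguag
miR-93-5p: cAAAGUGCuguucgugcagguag
miR-106b-5p: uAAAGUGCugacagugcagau
miR-92a-3p: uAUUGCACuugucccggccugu
miR-92b-3p: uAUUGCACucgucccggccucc
miR-25-3p: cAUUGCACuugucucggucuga
miR-192-5p: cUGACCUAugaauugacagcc
miR-215-5p: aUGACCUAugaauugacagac

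The third set holds single miRNAs with large changes, including miR-1268a and miR-1268b, of which one sequence is contained in the other.
miR-92a-1-5p: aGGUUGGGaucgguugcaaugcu
miR-16-2-3p: cCAAUAUUacugugcugcuuua
miR-671-5p: aGGAAGCCcuggaggggcuggag
miR-1268a: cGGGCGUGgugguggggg
miR-1268b: cGGGCGUGguggugggggug

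The control libraries held 6463528 to 7311783 counted reads and the knockdown libraries 5587106 to 5934261, so each knockdown library was smaller than each control library, and the part of library size in the results was not tested. A count of 3, the floor used here, equalled 0.410 to 0.537 CPM (read counts scaled to a common library size) of the library total, which covers counting error only, since PCR reads without molecular identifiers are not independent molecules. All other CPM values were scaled with TMM factors unless they are given as CPM of the library total. Control replicate 1 stood apart. The SD of its log2 differences from control replicates 2 and 3 was 0.438 and 0.440, against 0.327 between those 2 libraries and 0.346 to 0.370 between knockdown libraries. Several results below are also given without it. Of the markers of epithelial cells, the miR-200 family was abundant in all 6 libraries, and the list summed to 48684 to 52674 CPM of the library total in the controls and 49369 to 51609 in the knockdown libraries. The gut and pancreas epithelium markers miR-192-5p, miR-194-5p and miR-215-5p summed to 97746 to 116443 and 97887 to 101593 CPM. The acinar markers reached at most 0.464 CPM in sum, the fibroblast and muscle markers at most 7.84 CPM and the liver marker miR-122-5p at most 10.8 CPM. The islet markers summed to 46165 to 55891 CPM in the controls and 42430 to 42773 CPM after knockdown, nearly all of it miR-7-5p, while miR-375 stayed at or below 2.19 CPM. The blood markers summed to 393.7 to 502.8 and 445.3 to 487.2 CPM, nearly all of it miR-486-5p, with miR-451a at or below 4.30 CPM. The part of these cell types in the results was not tested. Of 9 tested markers of other cell types, 0 were differentially expressed (DE) by edgeR or DESeq2 and 2 had an unadjusted p under 0.05. Leaving out control replicate 1 made 2 of them DE and lower.

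After MYEOV depletion in AsPC-1 cells, 21 of the 35 differentially expressed miRNAs that rose were minor arms of their hairpins, and 16 of the 22 that fell were major arms, a count that dropped to 2 without knockdown replicate 1 or 3. Of 1455 listed miRNAs, 498 had enough counts to be tested, and 57 (11.4%) were DE at an adjusted p under 0.05 in edgeR's quasi-likelihood test, of which 35 rose (7.03% of those tested) and 22 fell (4.42%). The size of the changes was modest, with an absolute log2 fold change (LFC) of 0.51 at the median of the DE miRNAs. For all 57, the 3 control values lay entirely above or below the 3 knockdown values, as they did for 30.5% of all miRNAs tested. Without control replicate 1, 58 rose and 44 fell, and 54 of the 57 were still DE. The total dropped to 24 without knockdown replicate 1 and to 31 without knockdown replicate 3. With all 12 libraries in one fit, which moved LFCs in this line by -0.10 at the median, 25 rose and 45 fell. In each of the 6 fits that left out one library, 24 DE miRNAs passed the threshold, and all 57 kept their direction. The other 33 lost the call in at least 1 of these fits, as given with those described below.

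Minor arms accounted for 21 of the 35 increases. Of 148 minor arms tested, 21 rose (14.2%) and 4 fell. The class was set from all 6 libraries, knockdown included, so a change could itself set it. MiR-671-5p, one of the 4, took 64.7%, 55.7% and 49.5% of the reads of both arms in the controls. After knockdown it took 25.2%, 48.5% and 41.0%. Of 247 major arms, 5 rose (2.02%) and 16 fell (6.48%). The remaining increases were 9 of the 82 entries without an arm in their name, such as miR-1246, miR-7974 and miR-378d, which rose by LFCs of 0.85, 0.77 and 0.46. When control replicate 1 was left out, 28 minor arms rose and 7 fell, and 15 major arms rose and 30 fell. Without knockdown replicates 1, 2 and 3 in turn, 12, 19 and 15 minor arms rose, of 19, 33 and 24 miRNAs that rose in all. In the same fits 2, 5 and 2 major arms fell, of 5, 10 and 7 miRNAs that fell, so that major arms were not the larger part of the decreases there. Without control replicate 3, 9 of 14 that fell were major arms. In the fit of all 12 libraries, 15 minor arms rose and 11 fell, and 2 major arms rose and 28 fell, so the split by arm depended on the fit. As a share of all counted reads, which needs no scaling factor, minor arms took 1.82%, 1.75% and 1.74% in control replicates 1 to 3 and 1.98%, 1.96% and 1.99% in knockdown replicates 1 to 3. Every knockdown library thus lay above every control library, though this sum includes the minor arms called higher. Over all 148 minor arms tested, 76 had an LFC above 0 and 72 below, with a median of 0.02. For the 247 major arms, 108 lay above 0 and 139 below, with a median of -0.04. All 21 rising minor arms had a tested major arm, and for 1 of them, miR-92a-1-5p, that major arm rose as well, while for the other 20 it did not pass the test.

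**Figure D1:**
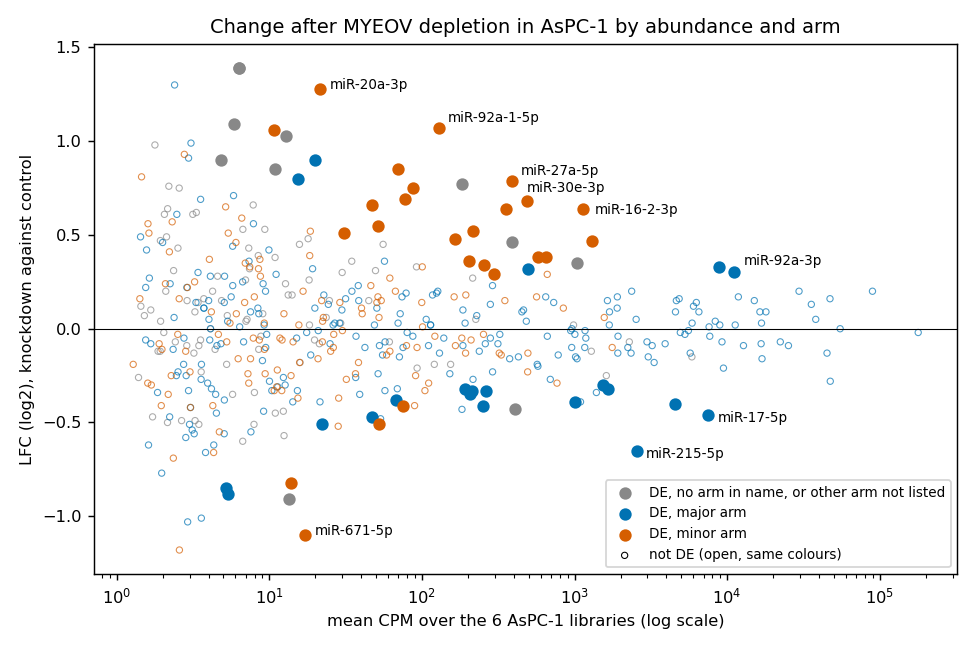
LFC (log2, knockdown against control) of the 498 miRNAs tested in AsPC-1 against their mean CPM over the 6 libraries on a log axis, with one point per miRNA, coloured by arm and filled where DE. The filled orange points, minor arms, lie mostly above 0 (21 of 25), and the filled blue points, major arms, mostly below it (16 of 21).

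The ratio of both arms of one hairpin was tested next, since it compares 2 miRNAs within one library and does not depend on how libraries are scaled. Of 127 hairpins with both arms tested, 15 (11.8%) had a changed arm ratio in limma's test, and in all 15 the minor arm gained, by 0.43 to 1.45 on the log2 scale of minor over major arm. Over all 127 hairpins, the minor arm was relatively higher in 72 and lower in 53, with a median difference of 0.07. The 15 included 13 of the 16 rising minor arms that entered this test, and also miR-17 and miR-23a. Both tests use the same counts, so this overlap is not separate support for the rise of these arms. With control replicate 1 left out, 20 hairpins were called, 19 of them with a gain of the minor arm. Without knockdown replicate 1 or 3, 3 were called, and without knockdown replicate 2, 5 were called, each with a gain. The number rested on limma's trend of the variance with abundance, because 1 hairpin, miR-20a, was called when the trend was left out.

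MiR-20a, a member of the miR-17-92 cluster, had the largest change of the arm ratio. Its 3p arm took 0.0733%, 0.0631% and 0.0726% of the reads of both arms in the controls and 0.212%, 0.181% and 0.179% in the knockdown libraries. All knockdown shares were more than 2 times every control share, and the difference was 1.45 (log2, SE 0.12, limma's adjusted p = 8.73e-05). In the miR-30e hairpin, from an intron of NFYC, the 3p arm took 6.05%, 5.91% and 6.77% in the controls and 10.3%, 9.41% and 9.43% after knockdown (difference 0.69, SE 0.10, limma's adjusted p = 0.00434). The 5p arm of miR-27a took 1.77%, 2.02% and 2.06% and then 3.19%, 2.92% and 2.89% (difference 0.64, SE 0.10, limma's adjusted p = 0.00485). These 3 hairpins were called in every fit that left out one library. The 3p arm of miR-486, a hairpin known from erythroid and muscle cells, took 8.55%, 11.6% and 10.7% in the controls and 15.7%, 16.4% and 16.6% after knockdown, with a difference of 0.76, and it lost the call when any one knockdown library was left out. The miR-194 ratio rose by 0.76 as well, with the call lost without knockdown replicate 1 or 3, but miR-194-5p is made from 2 hairpins and miR-194-3p was matched to only one of them, so the hairpins cannot be separated there. The miR-23a ratio rested on few reads, with miR-23a-5p at 1.63 to 2.10 CPM in the controls and 2.85 to 4.65 CPM in the knockdown libraries, and its call was lost without knockdown replicate 1 or 3. In the miR-17 hairpin, the 3p arm had an LFC of -0.01 and the 5p arm fell, and the call of the ratio held only without control replicate 1 when one library was left out. The other 8 hairpins lost the call when any one knockdown library was left out, miR-141 also without control replicate 2.

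**Figure D2:**
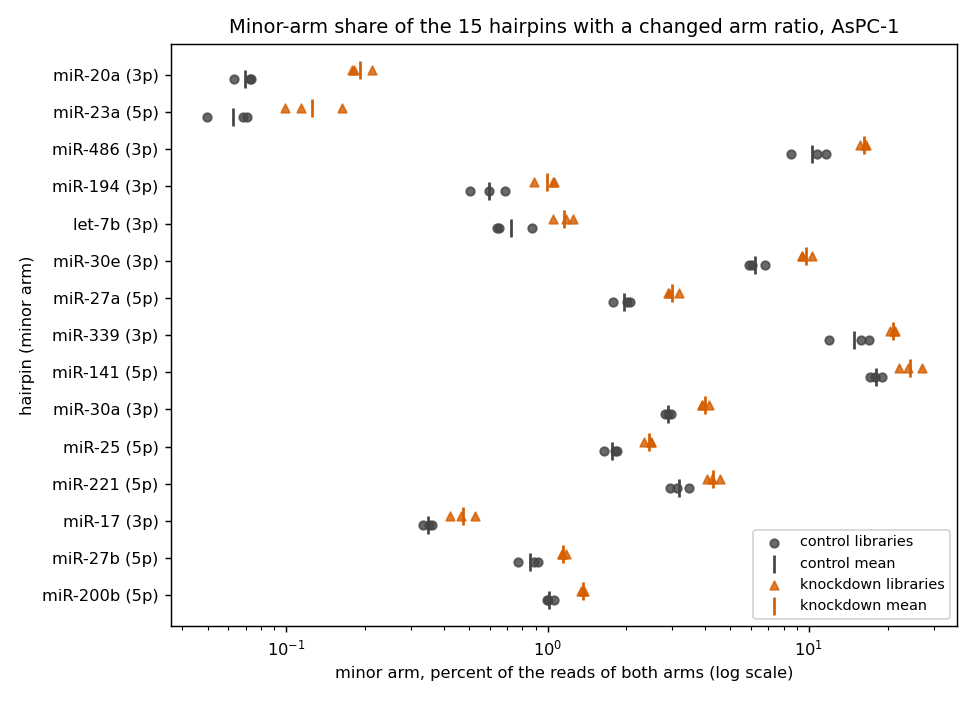
Share of the minor arm in the reads of both arms (percent, log axis) for the 15 hairpins with a changed arm ratio in AsPC-1, ordered by the size of the change, with one point per library and a vertical bar at the mean of each group. In every hairpin the 3 knockdown libraries (triangles) lie to the right of the 3 control libraries (circles).

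DE miRNAs were most frequent between 100 and 1000 CPM. Below 10 CPM, 6 of 196 miRNAs were DE (3.06%), and between 10 and 100 CPM 12 of 139 rose and 8 fell. In the range of 100 to 1000 CPM, 20 of 85 were DE (23.5%). Among these, 14 rose, 11 of them minor arms, and 6 fell. Between 1000 and 10000 CPM, 4 of 57 rose and 6 fell, and these 6 were all major arms. Of the 21 miRNAs above 10000 CPM, which held 76.0% of the reads, 1 was DE. This was miR-92a-3p with an LFC of 0.30. When control replicate 1 was left out, 3 of these 21 rose and 3 fell. In the same fit 7 rose and 14 fell between 1000 and 10000 CPM, 20 rose and 13 fell between 100 and 1000 CPM, 22 rose and 9 fell between 10 and 100 CPM, and 6 rose and 5 fell below 10 CPM. The 10 most abundant miRNAs took 57.0% to 59.9% of the reads, and 0 of the 10 were DE by edgeR or DESeq2, with 1 at an unadjusted p under 0.05. Among them, the oncogenic miR-21-5p had an LFC of -0.02 (SE 0.08) and the let-7 members let-7i-5p, let-7g-5p and let-7f-5p had LFCs of 0.20, 0.13 and 0.20, none past the threshold. MiR-7-5p, the most changed of the 10, had 44119, 56508 and 55189 CPM in the controls and 43395, 41996 and 43068 after knockdown, which did not overlap, with an LFC of -0.28 and an adjusted p of 0.0633 (edgeR). If control replicate 1 was left out, its LFC was -0.38 and it passed the threshold (adjusted p = 2.7e-07, edgeR). The 35 miRNAs that rose took 2.43% to 2.57% of the reads in the controls and 3.12% to 3.28% after knockdown, and the 22 that fell took 2.11% to 2.89% and 1.68% to 1.81%. These shares describe how the miRNAs were chosen and were not tested.

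MIR17HG on chromosome 13 encodes the miR-17-92 cluster, a MYC-activated transcript of 6 hairpins (chr13:92002859-92003645, GRCh37, plus strand), and its members changed in both directions. Of 11 tested members, 3 rose and 1 fell, with a median LFC of -0.07. MiR-18a-3p, a minor arm with an LFC of 0.20, was called higher as well without control replicate 1 (LFC 0.33, edgeR's adjusted p = 0.0179). MiR-92a-1-5p, the minor arm of the last hairpin, had 74.7, 95.4 and 79.2 CPM in the controls and 178, 163 and 184 CPM after knockdown. The groups were far apart, with a 2.11-fold increase (LFC 1.07, SE 0.11, edgeR's adjusted p = 2.63e-05). MiR-20a-3p had 16.1, 9.77 and 11.8 CPM and then 33.4, 29.8 and 28.2 CPM (LFC 1.28, SE 0.18, edgeR's adjusted p = 0.000232). MiR-92a-3p, which has the AUUGCAC seed rather than that of miR-17, had 9984, 10101 and 9910 CPM in the controls and 12599, 11649 and 12770 after knockdown. It rose by an LFC of 0.30 (SE 0.07, edgeR's adjusted p = 0.0146), and it can derive from MIR92A1 in this cluster or from MIR92A2 on chromosome X. MiR-17-5p, a repressor of the cell-cycle inhibitor CDKN1A, was the only member to fall, and its 11153 CPM in control replicate 1 stood above 7311 and 7590 CPM in the other controls and 5990, 6521 and 6369 CPM after knockdown. Its LFC was -0.46 with all libraries and -0.24 without control replicate 1, and it passed the test in both (edgeR's adjusted p = 0.0259 and 0.00175). It lost the call without knockdown replicate 1 or 3 (edgeR's adjusted p = 0.103 and 0.0768), and so did miR-92a-3p (0.105 and 0.0929). The guide arms miR-18a-5p, miR-19a-3p, miR-19b-3p and miR-20a-5p had LFCs of -0.43, -0.23, -0.27 and -0.16 and did not pass the test, and all 4 were highest in control replicate 1. Without it their LFCs were -0.19, -0.07, 0.03 and 0.02.

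The miR-106b-25 cluster, the paralog of miR-17-92, lies in MCM7, a gene for a replication helicase subunit (chr7:99691183-99691697, GRCh37, minus strand). Of its 6 tested arms, 2 fell and 1 rose. MiR-93-5p had 6331, 4489 and 4792 CPM in the controls and 3861, 3999 and 3978 CPM after knockdown (LFC -0.40, SE 0.11, edgeR's adjusted p = 0.0251). MiR-106b-5p had 2088, 1715 and 1737 CPM and then 1401, 1501 and 1522 CPM (LFC -0.32, SE 0.09, edgeR's adjusted p = 0.0262). Both carry the seed of miR-17-5p, and both were highest in control replicate 1, without which their LFCs were -0.23 and -0.22 with the test passed. Leaving out any one of the 3 knockdown libraries ended both calls, with adjusted p-values of up to 0.102 for miR-93-5p and 0.139 for miR-106b-5p (edgeR). MiR-25-5p, the minor arm of the remaining hairpin, rose from 134.5, 149.7 and 125.4 CPM to 193.2, 181.6 and 197.8 CPM (LFC 0.48, SE 0.09, edgeR's adjusted p = 0.00327), whereas miR-25-3p lay at 7150 to 8136 and 7583 to 7739 CPM with an LFC of 0.01. The related miR-106a-363 cluster on chromosome X had 2 tested members that no other locus encodes, miR-106a-5p and miR-18b-5p, neither DE in edgeR's or DESeq2's test and 1 with an unadjusted p under 0.05. It can also give miR-19b-3p and miR-92a-3p, described with miR-17-92.

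The summed reads of a seed were tested as a unit for 364 seeds, of which 42 (11.5%) were DE, 20 higher and 22 lower. With DESeq2's size factors in place of TMM, 21 were higher and 13 lower. A total of 68 seeds were DE without control replicate 1, and without knockdown replicates 1, 2 and 3 there were 17, 24 and 19. RefSeq sequences were matched for 440 of the 498 tested miRNAs (88.4%), and the miRNAs with a sequence held 95.3% of all reads. The AAAGUGC seed of miR-17, miR-20a, miR-93 and miR-106b summed to 43494, 31383 and 31945 CPM in the controls and 27831, 30320 and 28200 CPM after knockdown. Although 3 of its 5 tested members fell, the sum had an LFC of -0.31 and did not pass the test (edgeR's adjusted p = 0.105), and miR-20a-5p alone made up 55.2% of it. Its LFC was -0.09 without control replicate 1. The AUUGCAC seed held members that moved in opposite directions. MiR-92a-3p rose by 0.30 and miR-92b-3p fell by 0.32, and the sum had an LFC of 0.14 (edgeR's adjusted p = 0.223). Without control replicate 1 this sum was called higher, with an LFC of 0.16 (edgeR's adjusted p = 0.0202). By contrast, the UUUCAGU seed of miR-30e-3p and miR-30a-3p, both minor arms, rose from 551, 579 and 621 CPM to 917, 843 and 811 CPM (LFC 0.55, SE 0.08, edgeR's adjusted p = 0.00184). The AUCUUAC seed of miR-200a-5p and miR-200b-5p rose by 0.45 (SE 0.11, adjusted p = 0.0269, edgeR), a call lost without control replicate 2 or knockdown replicate 1. The CAAUAUU seed, 99.7% of it miR-16-2-3p, rose by 0.60, and the CUAUUCU seed of miR-26a-2-3p and miR-26a-1-3p by 0.49. The GCAGCAU seed of miR-103a-3p and miR-107, which lie in pantothenate kinase genes, fell from 12325, 12251 and 11915 CPM to 10406, 10417 and 10401 CPM (LFC -0.22, SE 0.06, edgeR's adjusted p = 0.0415), although neither member passed the test alone with all libraries (miR-103a-3p did without control replicate 1). That call held in 1 of the 6 fits that left out one library, the one without control replicate 1.

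In the miR-200 family, which restrains ZEB1 and ZEB2 and thereby maintains the epithelial state, 3 of the 4 tested minor arms rose and the 5 guides did not pass the test. No member fell. MiR-200b-5p had 171.2, 181.6 and 182.2 CPM in the controls and 258, 255 and 254 CPM after knockdown, a tight and complete separation (LFC 0.52, SE 0.08, edgeR's adjusted p = 0.000897). MiR-200a-5p, from the same cluster on chromosome 1 (chr1:1102484-1104467, GRCh37), rose by an LFC of 0.47, which did not pass without knockdown replicate 1 (edgeR's adjusted p = 0.0878), and miR-141-5p, from the cluster on chromosome 12, by 0.69. MiR-200c-5p, from the same cluster as miR-141, had 10.9, 5.38 and 7.41 CPM and then 8.79, 10.9 and 9.03 CPM, which overlapped (LFC 0.28, edgeR's adjusted p = 0.497). Their guides miR-200b-3p, miR-200a-3p and miR-141-3p had LFCs of 0.09, 0.03 and 0.13, and miR-200c-3p and miR-429 had LFCs of -0.07 and -0.15. After control replicate 1 was left out, miR-141-3p also passed the test with an LFC of 0.26, and miR-429 passed it with -0.16.

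In the miR-23/27/24 clusters on chromosomes 19 and 9, 2 minor arms rose, one from each cluster. MiR-27a-5p had 277, 273 and 300.2 CPM in the controls and 528, 467 and 476 CPM after knockdown, with an LFC of 0.79 (SE 0.09, edgeR's adjusted p = 4.38e-05). MiR-27b-5p, from the paralogous cluster in AOPEP, rose by 0.34 (SE 0.08, edgeR's adjusted p = 0.0155). Its call was lost without knockdown replicate 1 or 3. The other minor arms of these clusters did not pass the test, with LFCs of 0.93 for miR-23a-5p (edgeR's adjusted p = 0.0766), -0.12 for miR-24-1-5p, -0.05 for miR-24-2-5p and -0.27 for miR-23b-5p. The guide miR-27a-3p was called higher without control replicate 1, with an LFC of 0.21. In the miR-30 family, miR-30e-3p rose from 350, 364 and 404 CPM to 645, 574 and 574 CPM (LFC 0.68, SE 0.09, edgeR's adjusted p = 0.000148), and miR-30a-3p rose by 0.36, a call lost without knockdown replicate 1 or 3. The 5 guide arms of the family had LFCs of -0.13 to 0.03, none DE, although miR-30d-5p was called lower without control replicate 1. The other minor arms of the family did not pass the test, with LFCs of 0.27 for miR-30b-3p (edgeR's adjusted p = 0.104), -0.03 for miR-30c-1-3p, -0.18 for miR-30c-2-3p and -0.09 for miR-30d-3p. MiR-30b-3p passed without control replicate 1, with an LFC of 0.32 (edgeR's adjusted p = 0.0146).

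**Figure D3:**
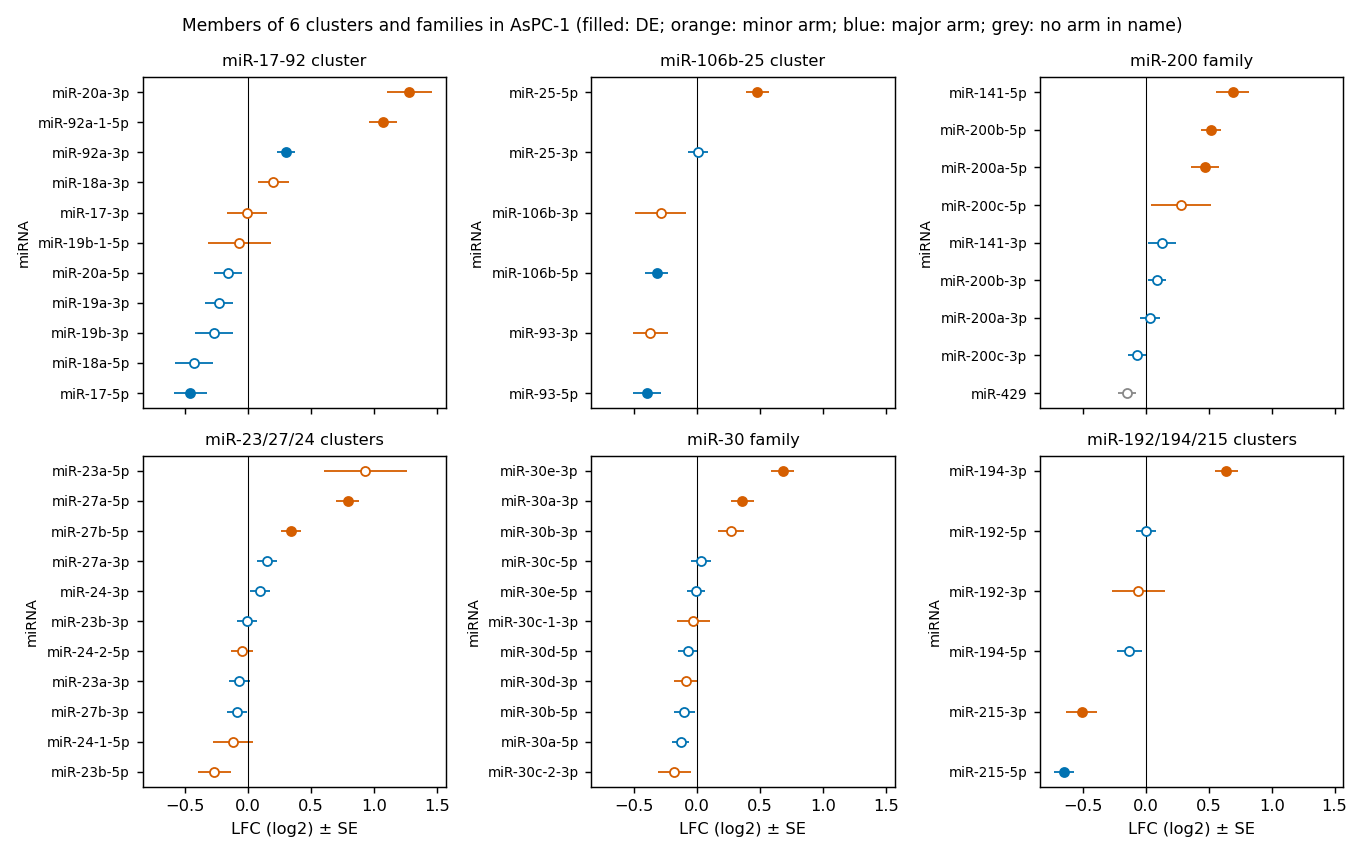
LFC (log2) with its standard error for every tested member of 6 clusters or families in AsPC-1, ordered by LFC within each panel, filled where DE and coloured by arm. Filled orange points (minor arms) lie on the positive side in all panels except for miR-215-3p, and the filled blue points are miR-17-5p, miR-93-5p, miR-106b-5p and miR-215-5p on the negative and miR-92a-3p on the positive side.

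The let-7 family represses RAS and HMGA2 transcripts. Of 9 guide strands, miR-98-5p included, 0 were DE by edgeR or DESeq2 and 1 had an unadjusted p under 0.05, with a median LFC of 0.10. The most abundant of them, let-7i-5p, had 65299, 93391 and 91764 CPM in the controls and 99253, 90898 and 96817 CPM after knockdown, with control replicate 1 the low library. Of 9 passenger strands, 2 rose, against 7.03% of all miRNAs tested. An LFC above 0 was found for 8 of these 9, for 7 of the 9 guide strands and for 247 of all 498 tested. Without control replicate 1, let-7i-3p passed too (LFC 0.31, edgeR's adjusted p = 0.0316). The passenger let-7b-3p had 30.6, 46.0 and 32.3 CPM and then 62.6, 55.4 and 53.7 CPM (LFC 0.66, SE 0.15, edgeR's adjusted p = 0.00925), and let-7f-1-3p rose by 0.51. The first call was lost without control replicate 3 or knockdown replicate 1 and the second when any one of the knockdown libraries was left out. Single passenger strands of other families rose too. MiR-16-2-3p, of the cluster in an intron of SMC4, had 745, 1036 and 870 CPM in the controls and 1403, 1302 and 1422 CPM after knockdown (LFC 0.64, SE 0.10, edgeR's adjusted p = 0.0011). MiR-125b-1-3p, miR-26a-2-3p, miR-181a-3p and miR-221-5p rose by LFCs of 0.75, 0.55, 0.38 and 0.38, and in each of these families the guide was not DE with all libraries (miR-181a-5p was called higher without control replicate 1). The calls of miR-181a-3p and miR-221-5p were lost without knockdown replicate 1 or 3.

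The gut-enriched miR-192, miR-194 and miR-215, which p53 can induce, are made from 2 clusters, and their DE products moved in both directions. MiR-215-5p, from the cluster on chromosome 1 (chr1:220291195-220291583, GRCh37), had 2916, 3049 and 3419 CPM in the controls and 2084, 1932 and 1951 CPM after knockdown. Its fall to 0.636 of the control level was the largest decrease among the DE miRNAs above 1000 CPM (LFC -0.65, SE 0.08, edgeR's adjusted p = 0.000141). MiR-215-3p of the same hairpin fell as well, from 52.2, 66.7 and 65.6 CPM to 39.6, 44.2 and 45.9 CPM (LFC -0.51, SE 0.12, edgeR's adjusted p = 0.0138), but did not pass without control replicate 2, control replicate 3 or knockdown replicate 1. MiR-192-5p, which shares the UGACCUA seed, lay at 52665 to 59148 CPM in the controls and 53308 to 57403 CPM after knockdown, and it made up 95.6% of this seed, whose sum had an LFC of -0.06. MiR-194-3p, matched to the cluster on chromosome 11, rose from 282, 255 and 298 CPM to 449, 397 and 452 CPM (LFC 0.64, SE 0.09, edgeR's adjusted p = 0.000288).

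MiR-92b, from a hairpin in the exon of THBS3-AS1 on chromosome 1, also fell on both arms. MiR-92b-5p had 15.4, 20.4 and 17.6 CPM in the controls and 10.3, 9.88 and 9.94 CPM after knockdown (LFC -0.82, SE 0.17, edgeR's adjusted p = 0.00468), and miR-92b-3p fell by 0.32, a call lost when any one of the knockdown libraries was left out. The largest decrease of a DE miRNA was that of miR-671-5p, which directs the cleavage of CDR1as, a circular RNA that binds miR-7. It had 29.0, 22.1 and 19.2 CPM in the controls and 6.89, 13.9 and 11.9 CPM after knockdown (LFC -1.10, SE 0.22, edgeR's adjusted p = 0.00468), whereas miR-671-3p had an LFC of -0.02. MiR-425-5p, of the miR-191 and miR-425 cluster in DALRD3, fell from 1157, 1097 and 1159 CPM to 863, 899 and 836 CPM (LFC -0.39, SE 0.08, edgeR's adjusted p = 0.00327). MiR-210-3p, a hypoxia-induced miRNA, had 337, 252 and 271 CPM and then 202.2, 223.6 and 221.5 CPM (LFC -0.41, edgeR's adjusted p = 0.0207), and its call was lost without knockdown replicate 1 or 3. In the GABRE gene on chromosome X, miR-452-5p fell by 0.30 and miR-224-5p, from the neighbouring hairpin, rose by 0.33. Each kept its call in 3 of the 6 fits that left out one library, and both lost it without knockdown replicates 1 and 3, miR-452-5p also without knockdown replicate 2 and miR-224-5p without control replicate 3. Of 13 tested arms of the CLCN5 cluster on chromosome X, 1 fell, miR-188-5p at 5.80 to 7.69 CPM in the controls and 3.45 to 3.98 CPM after knockdown, with a call that held only without control replicate 1 or 2 when one library was left out.

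Entries that overlap other RNAs, such as tRNA, snRNA or repeats, included some of the largest changes. Of 11 tested, 3 rose and 2 fell, and miR-1260b was also called higher without control replicate 1. MiR-1268a and miR-1268b had equal values in every library, 2.81, 2.97 and 4.62 CPM in the controls and 9.48, 7.20 and 10.8 CPM after knockdown, so their 2 calls rest on the same reads (LFC 1.39, SE 0.26, edgeR's adjusted p = 0.00265). MiR-1246, which overlaps U2 snRNA sequence, had 7.10, 8.77 and 7.55 CPM and then 15.9, 14.7 and 11.6 CPM (LFC 0.85, a call lost without knockdown replicate 1). MiR-4454, which overlaps tRNA sequence, fell from 18.6, 17.7 and 16.6 CPM to 8.10, 10.7 and 9.21 CPM (LFC -0.91, SE 0.17, edgeR's adjusted p = 0.00265), and miR-1303 fell by 0.43, a call lost without control replicate 3 or knockdown replicate 1. Among the other entries with few reads, miR-1275, miR-573, miR-642a-3p, miR-550a-3-5p and miR-3662 rose by LFCs of 1.03, 1.09, 1.06, 0.90 and 0.90, and miR-514a-3p and miR-301a-5p fell by 0.85 and 0.51 on the log2 scale. Of these, miR-1275 and miR-550a-3-5p were called in all 6 fits that left out one library, miR-642a-3p in 5 (not without knockdown replicate 1) and miR-573 in 3 (not without control replicate 2 or knockdown replicate 1 or 3). The calls of miR-3662, miR-514a-3p and miR-301a-5p each held in 1 of the 6, that without control replicate 2 for miR-3662 and without control replicate 1 for the other two. The minor arm miR-486-3p, at 44.4, 51.8 and 53.4 CPM in the controls and 91.7, 84.7 and 94.1 CPM after knockdown, rose by 0.85 (SE 0.11, edgeR's adjusted p = 0.000141). The other arm, miR-486-5p, had 474.5, 393.3 and 444.3 CPM and then 493.1, 431.9 and 474.1 CPM (LFC 0.09), which overlapped.

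**Figure D4:**
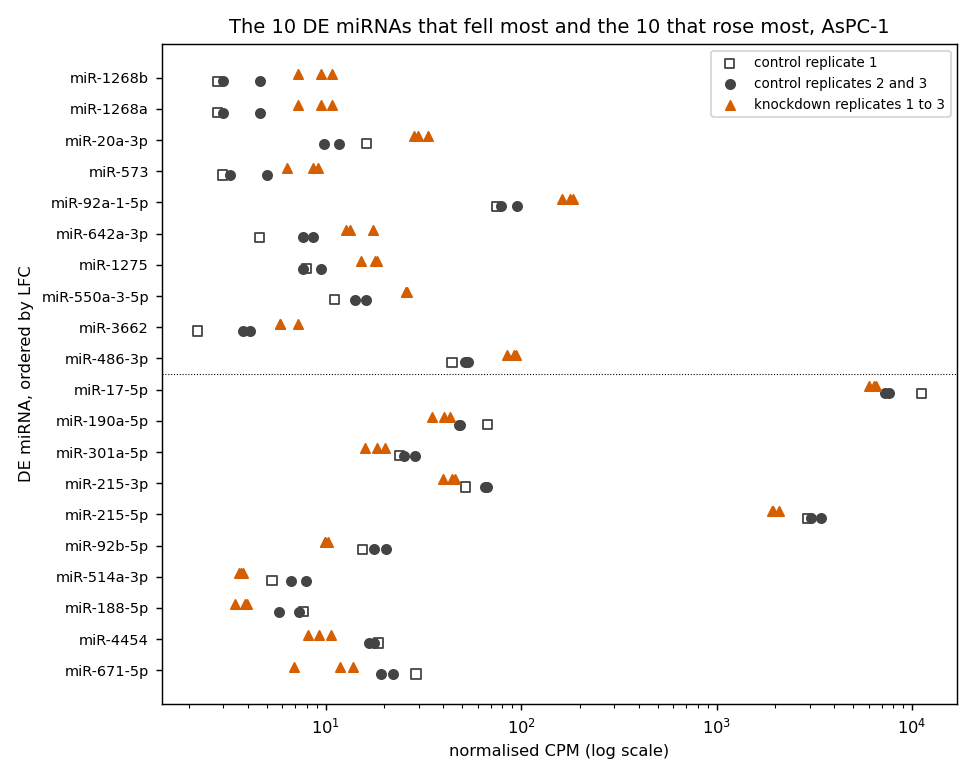
Normalised CPM (log axis) in each AsPC-1 library of the 10 DE miRNAs that rose most (above the dotted line) and the 10 that fell most (below it), with control replicate 1 as open squares, the other controls as circles and the knockdown libraries as triangles. The groups do not overlap for any of the 20, and control replicate 1 is the highest control for 6 of them (miR-17-5p, miR-20a-3p, miR-188-5p, miR-190a-5p, miR-671-5p and miR-4454) and the lowest for 13.

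In several other families, edgeR called 0 members. Of the 7 tested members of the miR-29 family, 1 had an unadjusted p under 0.05. Of the 3 tested on the miR-34 list, miR-34a-5p, miR-449a and miR-449c-5p, 2 did, and their LFCs ranged from -0.56 to 0.99. None did in the miR-148 and miR-152 family (5 tested), the miR-10 and miR-196 families (7 tested) or the miR-183 cluster (6 tested), and DESeq2 also called 0 in each of these. Of 10 Drosha-independent entries such as miR-320 and miR-484, 0 were DE in edgeR's test, 1 in DESeq2's, and 4 had an unadjusted p under 0.05. Leaving out control replicate 1 gave 2 higher in the miR-29 list, 1 higher in the miR-34 list, 2 lower in the miR-148 and miR-152 list, and 3 higher and 1 lower among the Drosha-independent entries.

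Whether AsPC-1 responded differently from PANC-1 was asked with an interaction term in one edgeR fit of all 12 libraries. Of 650 miRNAs, 2 (0.308%) differed, miR-30c-2-3p and miR-1303, and 74 had an unadjusted p under 0.05. Of the 57 miRNAs DE in AsPC-1, miR-1303 was the one that passed this test, so a difference between the lines was not detected for the others with all libraries. The number that differed rose to 25 without AsPC-1 control replicate 1, 20 without AsPC-1 control replicate 2 and 13 without PANC-1 control replicate 3. The call of miR-1303 was lost with DESeq2's size factors, with total count scaling and in DESeq2's Wald test (adjusted p = 0.0717, 0.0875 and 0.0560), and without knockdown replicate 1 of AsPC-1 (0.0647), and that of miR-30c-2-3p was lost with total count scaling (0.0622). Of the 57, 8 were not tested in the PANC-1 fit, among them miR-141-5p, miR-194-3p, miR-200b-5p and miR-215-3p. MiR-92a-1-5p (LFC 1.07 against 0.32 in PANC-1) and miR-671-5p (-1.10 against 0.06) came next in the interaction test, each with an adjusted p of 0.0564 (edgeR). Of the 15 hairpins with a changed arm ratio, 12 were tested in PANC-1, where the minor arm was relatively higher in all 12. Some of these differences were small beside their SE, such as 0.18 (SE 0.28) for miR-17, 0.17 (SE 0.30) for miR-23a and 0.18 (SE 0.17) for miR-486. MiR-25, miR-27a, miR-27b and miR-339 passed the test there. The share over all hairpins tested in both lines was not counted, so 12 of 12 cannot be judged against it. In the test of the difference in arm ratio between the lines, 0 of 105 hairpins were called by limma and 10 had an unadjusted p under 0.05.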

How the data were processed

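Small RNA from AsPC-1 and PANC-1 cells was sequenced after transfection with siRNA against MYEOV and in controls, with 3 libraries per group. The authors trimmed adapters, mapped reads to hg19 with Bowtie (version not given in the sources used here), kept perfect matches and deposited raw counts per mature miRNA, in which only sequences that share the 5′ end of the most abundant form enter, so other isoforms are not counted. MiRNAs missing from a library's file were set to a count of 0. Samples were grouped by title.

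From these counts, miRNAs were kept by filterByExpr (minimum count 10) on the 6 AsPC-1 libraries, scaled with TMM factors and tested with the quasi-likelihood F test of edgeR 4.0.16 in R 4.3.3, without a replicate block. Benjamini-Hochberg adjustment covered every miRNA tested, an adjusted p under 0.05 was called, and tests were two-sided. Seed sums and the interaction of line and treatment over 12 libraries were tested in the same way. Arm ratios, log2((3p + 0.5)/(5p + 0.5)), were tested with limma 3.58.1. The tests were run on simulated data first. Hairpins were placed on GRCh37 by exact match (1525 of 1562 RefSeq hairpins), and those within 10000 bp on one strand formed a cluster. Depth, given with the libraries, limits the precision of entries near 3 counts. Near-identical miRNAs can share reads. Alternatives were other size factors (DESeq2 1.42.0 and total count), filters, tests, thresholds and pseudocounts, one fit of all 12 libraries, the replicate block and leaving out each library. The arm-ratio test in PANC-1 and the counts by arm under each alternative were added after seeing the data.

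The miRNAs, lists and comparisons were chosen with earlier results of these data known. Named were the 10 DE miRNAs that rose and the 10 that fell most, the 10 most abundant miRNAs, DE members of family lists, up to 10 hairpins with a changed arm ratio, up to 5 seeds each way, miRNAs that differed between the lines, and miR-17-5p and miR-93-5p. Other named miRNAs, among them the partner arms, miR-7974, miR-378d and the unchanged members of the families described, were chosen after their values were seen.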

Additional observations from a re-analysis of the deposited data

Results flagged for a closer look

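MiR-30c-2-3p and miR-1303 responded differently in AsPC-1 and PANC-1 by the interaction test of edgeR. MiR-30c-2-3p, a minor arm, had 41.25, 39.91 and 40.97 CPM in the AsPC-1 controls and 39.99, 29.29 and 38.84 CPM after knockdown, and 88.9, 105.6 and 95.98 CPM in the PANC-1 controls and 147, 139 and 164 CPM after knockdown. Its LFC in AsPC-1 was lower than that in PANC-1 by a difference of -0.91 (SE 0.17, edgeR's adjusted p = 0.00306). MiR-1303 had 394, 497 and 505 CPM in the AsPC-1 controls and 343, 338 and 357 CPM after knockdown, and 713, 825 and 859 CPM in the PANC-1 controls and 896, 910.4 and 928 CPM after knockdown, with a difference of -0.71 (SE 0.14, edgeR's adjusted p = 0.00467). It fell in AsPC-1 and had an LFC of 0.19 in PANC-1 (adjusted p = 0.108, edgeR). The median difference over all 650 miRNAs was -0.12 with TMM factors, and relative to it the differences were -0.79 and -0.59. With total-count scaling the median was 0.10, 2 other miRNAs were called, both higher in AsPC-1, and neither of the former passed.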

How the results depend on the processing

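All 57 DE miRNAs kept their direction when any one AsPC-1 library was left out, with 24 to 102 DE miRNAs, and the other counts ranged from 3 to 20 hairpins, 17 to 68 seeds and 1 to 25 miRNAs that differed between the lines, the last over all 12 libraries. Thresholds of 0.1 and 0.01 gave 90 and 27 DE miRNAs. Without a filter, 10 miRNAs differed between the lines, and without the variance trend 1 hairpin had a changed arm ratio. The causes were not tested. Control and knockdown libraries share the numbers 1 to 3. Same-numbered AsPC-1 libraries had correlations of -0.155, -0.121 and 0.128 in their deviations from the group means. These values show no shared deviation, but with 3 libraries per group they cannot tell whether the numbers mark pairs. With the replicate block, 29 miRNAs (23 higher, of which 14 were minor arms, and 6 lower, of which 2 were major arms), 14 seeds and 1 hairpin were called. Of the 10 most abundant miRNAs, none DE, 5 had an LFC that changed sign. With at least 10 counts in every library, that of miR-192-5p became 0.01, and with all 12 libraries in one fit, that of miR-26a-5p became -0.04. Over the fits that left out one library, the LFC ranged from -0.05 to 0.01 for miR-21-5p, -0.04 to 0.06 for miR-192-5p, -0.20 to 0.02 for miR-194-5p, -0.05 to 0.14 for miR-26a-5p and -0.01 to 0.22 for let-7g-5p. Total count scaling, DESeq2's size factors and its Wald test gave 59, 56 and 62 DE miRNAs. Depth limits entries below 10 CPM.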

Other observations

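The genomic setting of the tested miRNAs was tabulated as a description. Of all 498 miRNAs tested, 7.03% rose and 4.42% fell. Of 101 miRNAs whose hairpin lies in a lncRNA gene, 12 rose (11.9%) and 4 fell (3.96%). Of 285 in a protein-coding gene, 13 rose (4.56%) and 14 fell (4.91%), and of 91 without a host gene, 8 rose (8.79%) and 3 fell (3.30%). Without control replicate 1, these counts were 22 higher and 6 lower in lncRNA genes, 18 and 27 in protein-coding genes, and 14 and 10 without a host gene. Chromosome 7 had 3 higher and 5 lower miRNAs of 33, and chromosome X, which held the most tested miRNAs, 2 higher and 3 lower of 50, or 5 higher and 5 lower and 2 higher and 5 lower without that library. These groups overlap with the arms and clusters described above, and their differences were not tested.

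The base content of the mature sequences was also tabulated. Of the miRNAs with a matched sequence, the first base was U in 190 of 440 tested (43.2%), in 4 of 31 that rose (12.9%) and in 9 of 21 that fell (42.9%). It was U in 30 of 134 minor arms (22.4%) and 124 of 220 major arms (56.4%). Median GC content over the same sequences was 47.6% for those tested, 50% for those that rose and 47.8% for those that fell.

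The same arm-ratio test in PANC-1 called 12 of 150 hairpins, 10 with a gain of the minor arm and 2 with a loss. MiR-25, miR-27a, miR-27b and miR-339 were called with a gain of the minor arm in both lines. For miR-27a, which had the lowest adjusted p of them in PANC-1, the difference was 0.88 (SE 0.13) there and 0.64 (SE 0.10) in AsPC-1. The difference for miR-20a was 1.45 (SE 0.12) in AsPC-1 and 0.58 (SE 0.29) in PANC-1, where it did not pass the test (limma's adjusted p = 0.207).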
